A study of Rattus norvegicus with 12 samples.

Results

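The insulin-like growth factor (IGF) family described here comprises the ligands Igf1 and Igf2, the receptor Igf1r and the binding proteins Igfbp1 to Igfbp7. Its members were taken as the probes whose gene name in the scanner files is one of these 10 genes, which gave 18 of the 45598 rat probes on the array. All 18 probes and all 10 genes passed the filter on dim probes, which kept a probe well above background on at least 4 of 12 arrays and left 27178 probes. Igfbp7 passed that filter through the laser arrays alone. The family was selected on the Igfbp7 values of the laser arrays, which were known to differ, so the laser values of Igfbp7 are given as a description with no test.

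Total RNA came from calvarial bone (the skull vault) of rats aged 10 weeks, taken 24 hours after surgery, and each of the 3 groups was read on 4 single-colour Agilent arrays. In the bur group a rectangular defect of 8 by 3 mm was drilled into the bone with a bur. In the laser group the same defect was ablated with an Er:YAG laser, an infrared laser whose light is absorbed strongly by water, at 127 mJ per pulse, 20 Hz and 20.2 J/cm2 per pulse. In the control group only the periosteum, the membrane over the bone, was taken off, so the controls are operated bone and not resting bone. Whether the samples of 1 group are separate animals is not stated in the labels, and the p-values then measure only the spread between these samples, which may be technical.

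IGF1 and IGF2 are secreted peptides that signal through the receptor tyrosine kinase IGF1R, mainly through the PI3K, AKT and MAPK cascades, and both are stored in bone matrix and made by osteoblast-lineage cells. IGFBP1 to IGFBP6 bind the ligands with high affinity, lengthen their life in tissue and either hold them back from the receptor or deliver them to it, and proteases free the ligands by cutting the binding proteins. IGFBP7 is a related secreted protein with low affinity for IGFs that is abundant around blood vessels.

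The results turn on a few of the 18 probes, each of which is 60 bases long, and the files give their positions on the rat genome build rn4. The brightest Igf1 probe (A_64_P052740, chr7:24587916-24587975, plus strand) is printed on 10 spots of each array and reads the protein-coding part of the mRNA. The Igf1r probe A_44_P474037 (chr1:122989150-122989209, plus strand) also reads coding sequence. Both are shown whole because the Igf1 probe has the most spots and the Igf1r probe carries the only receptor call.
Igf1 A_64_P052740: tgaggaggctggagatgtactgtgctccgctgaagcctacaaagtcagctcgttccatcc
Igf1r A_44_P474037: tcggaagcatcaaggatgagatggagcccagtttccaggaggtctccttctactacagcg

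Further stretches of 30 bases come from 3 probes whose readings stood apart. The only Igfbp7 probe (A_64_P048187, chr14:33069995-33070054, plus strand) has a GC content of 26.7% and holds the letters AATAAA, the usual polyadenylation signal, shown in capitals. On the given strand 9.04% of all 45598 probes hold these letters. The Igf1 probes A_44_P1164271 (chr7:24605477-24605536) and A_44_P1087068 (chr7:24605669-24605728) lie next to each other on the plus strand and gave opposite readings. The first holds a TC repeat of 18 bases near its end, shown in capitals. Only 96 probes (0.211%) hold a repeated pair of neighbouring bases, runs of the same base included, over at least 16 bases. Whether these 3 probes lie in an untranslated region was not determined here, since no rn4 annotation was used.
Igfbp7 A_64_P048187, bases 24 to 53: ttaaacaaaacaAATAAAattcttattaca
Igf1 A_44_P1164271, bases 31 to 60: atagcagttTCTCTCTCTCTCTCTCTCttt
Igf1 A_44_P1087068, bases 31 to 60: agcaaaaacaatgaaagcctggagcccaaa

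The array signal was similar in the bur and control groups and higher on the laser arrays. The median processed signal over spots was 22.3 ± 4.18 (SD, n = 4) for bur, 28.7 ± 12.4 for control and 67.1 for laser, where it ranged from 55.6 to 81.9. The share of spots well above background was 58.1%, 61.0% and 69.5%. All 8 bur and control arrays were on slide 1 and all 4 laser arrays on slide 2, so slide and laser treatment cannot be told apart. On slide 1 the controls were in row 1 and the bur arrays in row 2. Bur treatment and row therefore cannot be told apart either. All 8 osteoblast markers on the list (among them Bglap, Ibsp and Col1a1) were measured. Controls 1 and 4 had far more signal of the myelin gene Mbp than the other arrays, and values that rest on them are given with and without them.

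By their brightest probes, most genes of the IGF family did not pass the test in any comparison. Apart from Igfbp7, whose laser values chose the family, only Igfbp2 did by that probe. Dimmer probes of Igf1, Igf2 and Igf1r were called in laser comparisons and are described below. Bur against control called 2 of 10 genes by their brightest probe at an adjusted p under 0.05, Igfbp2 lower and Igfbp7 higher, against 21.5% of all 16438 genes. Laser against control also called Igfbp2 lower and Igfbp7 higher, against 33.0% of all genes. Laser against bur called Igfbp7 alone, against 25.2% of all genes. Since Igfbp7 chose the family, nothing is read from its laser calls. Its bur call is not read either, because no bur or control array measured it. Of the other 9 genes, 1, 1 and 0 were called in these comparisons, a share below that of all genes in each.

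Counted by probe and without Igfbp7, 1 of 17 (5.88%) was called in bur against control, where 20.1% of all probes were. In laser against control 3 of 17 (17.6%) were called, against 32.5%, and in laser against bur 2 of 17 (11.8%), against 26.7%. The 4 values of both groups did not overlap for 2, 3 and 2 of the 17 probes in these comparisons, where 20.7%, 34.4% and 34.7% of all kept probes did not. The median log2 difference of the 9 genes was 0.07, -0.02 and -0.27, beside 0.09, 0.05 and -0.06 over all kept probes. Scaling each array to its 75th percentile in place of quantile normalization moved the median of all probes in bur against control from 0.09 to -0.11, and the share of higher calls among all calls from 61.0% to 39.1%.

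**Figure D1:**
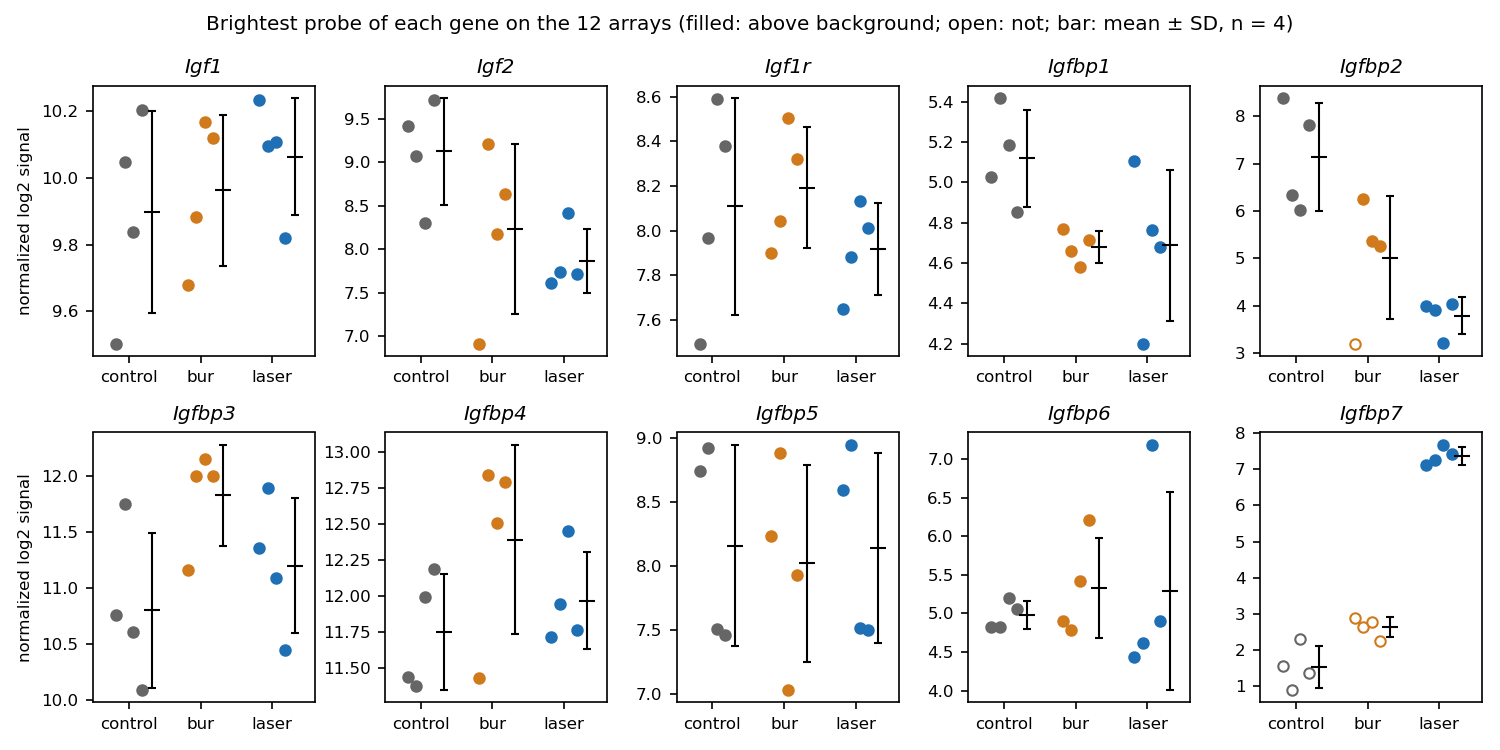
Normalized log2 signal (y axis) of the brightest probe of each of the 10 genes on the 4 control, 4 bur and 4 laser arrays, with the mean and SD of each group as a bar; filled points are well above background and open points are not. Each panel has its own scale, and levels of different genes cannot be set against each other. Igfbp7 is filled on the 4 laser arrays only, and Igfbp2 is lower on the 4 laser arrays (3.21 to 4.03) than on the 4 controls (6.02 to 8.38).

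**Figure D2:**
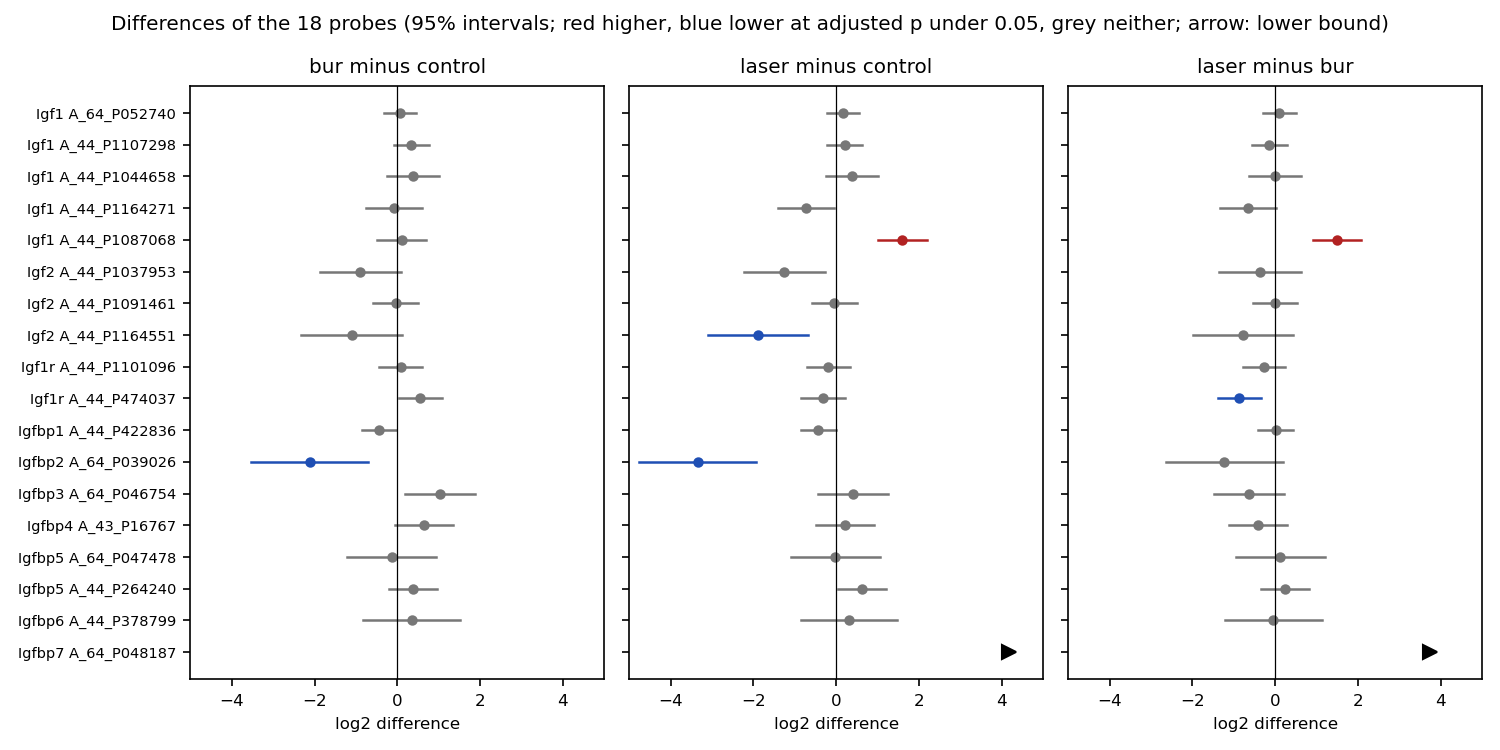
Log2 difference (x axis) with its 95% interval for each of the 18 probes (y axis) in the 3 comparisons, from 1 limma fit of all 12 arrays; red and blue mark higher and lower calls at an adjusted p under 0.05. Black arrows give the lower bounds for Igfbp7 on the scale of this fit. Its bur minus control value is left out because no array of either group measured it. Most of the intervals cross 0, and Igfbp2 has the largest negative differences.

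Igf1, the ligand best known for driving bone growth, was read at a steady level by its brightest probe. The log2 signals were 9.50, 10.05, 9.84 and 10.20 on controls 1 to 4. They were 9.68, 9.88, 10.17 and 10.12 after bur drilling. After laser ablation they were 10.23, 10.10, 10.11 and 9.82, and the 3 groups overlapped throughout. The difference from control was 0.07 ± 0.18 (SE; 95% interval -0.33 to 0.46) for bur and 0.17 ± 0.18 (-0.23 to 0.56) for laser, with limma adjusted p of 0.831 and 0.508. Laser and bur differed by 0.10 ± 0.18 (adjusted p = 0.723). The SD between the 10 spots of this probe had a median of 0.08 over the arrays and a maximum of 0.44. The median was less than the SD between arrays of a group (0.17 to 0.30), and the maximum was more.

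The 5 Igf1 probes did not give the same answer. A_44_P1107298 and A_44_P1044658, both farther along the mRNA, read differences between -0.14 and 0.39 in the 3 comparisons, and none was called. A_44_P1087068 read 5.08, 6.11, 5.75 and 5.02 on the controls. It read 5.67, 5.89, 5.48 and 5.35 on the bur arrays. On the laser arrays it read 7.15, 7.19, 7.46 and 6.56, above every other array.

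By that probe alone Igf1 was called higher after laser, by 1.60 ± 0.27 against control (adjusted p = 0.0011) and by 1.49 ± 0.27 against bur (adjusted p = 0.0020). Each call held in 20 of 21 alternative settings and ended with the authors' deposited values. Its neighbour A_44_P1164271 read the opposite sign, -0.74 ± 0.31 against control (adjusted p = 0.0877) and -0.66 ± 0.31 against bur (adjusted p = 0.137), and was not called. The authors' deposited table holds 1 entry for each accession, and its entry for the accession that both probes read has a laser against control log2 fold change of 0.18 (adjusted p = 0.381) and a laser against bur one of 0.24 (adjusted p = 0.275). The probe with 10 spots and the single-spot probe thus differ in their call for the same gene, and the cause was not tested.

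**Figure D3:**
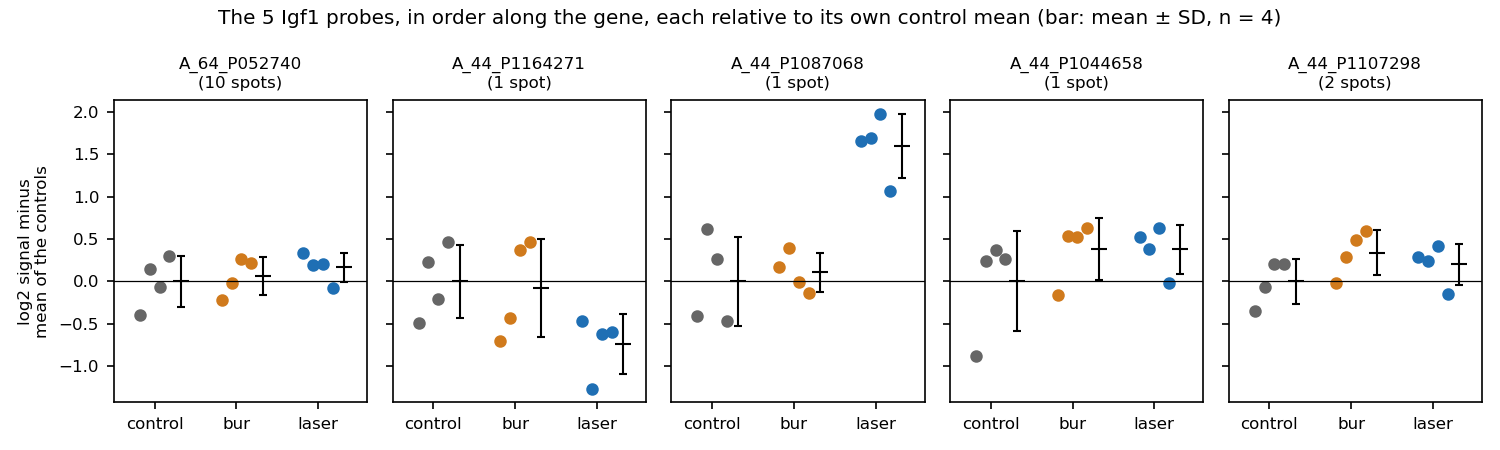
Log2 signal of the 5 Igf1 probes on each array minus the mean of the same probe on the 4 controls (y axis), by group, in order along the gene, with bars for the group mean and SD. The laser points of A_44_P1087068 lie above all control and bur points, while those of A_44_P1164271 lie below most of them and the other 3 probes overlap.

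Igf2, the ligand that dominates fetal growth and is abundant in bone matrix, did not pass the test in any comparison by its brightest probe. That probe (A_44_P1037953) read 9.41, 9.07, 8.30 and 9.72 on the controls. It read 6.92, 9.20, 8.17 and 8.64 after bur and 7.61, 7.74, 8.41 and 7.71 after laser. Of the laser arrays only the third was as high as the lowest control. The laser difference from control was -1.25 ± 0.45 (adjusted p = 0.0514) and the bur difference -0.89 ± 0.45 (adjusted p = 0.186). Laser and bur differed by -0.36 ± 0.45 (adjusted p = 0.594).

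The Igf2 value in laser against control sat at the threshold, and 10 of 22 alternative settings called it. It is -1.15 in the authors' deposited table, with an adjusted p of 0.0358. Without controls 1 and 4, which read 9.41 and 9.72, the difference was -0.81 (adjusted p = 0.303). The dim probe A_44_P1164551 was called lower after laser (-1.89 ± 0.55, adjusted p = 0.0222), but was well above background on 3 control arrays, 1 bur array and 1 laser array. That call was lost without controls 1 and 4 together (-1.48, adjusted p = 0.153), and without control 1 (adjusted p = 0.0538), control 4 (0.0537) or laser 1 (0.0652) alone. Under the normexp background correction, which adds 50 to every signal before the log, its value was -0.20. The third probe, A_44_P1091461, read differences between -0.04 and 0.00 in the 3 comparisons.

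Igf1r, the receptor for both ligands, was read by 2 probes that differ in where they lie. The brightest (A_44_P1101096), near the far end of the long mRNA, ranged from 7.49 to 8.59 on controls, 7.90 to 8.50 after bur and 7.65 to 8.13 after laser, and it was called in no comparison. The coding probe A_44_P474037 read 3.93, 4.53, 4.81 and 4.52 on the controls. It read 5.10, 4.92, 4.93 and 5.05 after bur, the highest 4 values of the 12. After laser it read 3.96, 3.62, 4.21 and 4.72.

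By the coding probe Igf1r was lower after laser than after bur, by 0.87 ± 0.24 on the log2 scale (1.83-fold, adjusted p = 0.0196). The call held in 18 of 21 alternative settings, which ranged from -1.07 to -0.27, the last under the normexp background correction. The probe was dim. The lowest signal that counted as above background was 3.37 to 3.83 on the bur arrays and 1.64 to 2.19 on the laser arrays. It ended under 75th percentile scaling (adjusted p = 0.0506) and without laser 1 (0.0571) or laser 2 (0.0574). Bur exceeded control by 0.55 ± 0.24 with no overlap of the values, but the adjusted p was 0.126. The laser minus bur value of this probe is -0.43 in the authors' deposited table, with an adjusted p of 0.0225. Its bur minus control value in the authors' deposited table is 0.43 (adjusted p = 0.0223). The brightest probe gave -0.27 ± 0.24 for laser against bur (adjusted p = 0.431), so the call rests on 1 of the 2 probes.

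Igfbp2, a binding protein that osteoblasts make and that is also abundant in the brain and in the membranes that cover it, fell after laser ablation, and after bur drilling in a call that many settings ended. Its only probe (A_64_P039026, chr9:71994131-71994190, plus strand) read 8.38, 6.34, 6.02 and 7.81 on controls 1 to 4. After bur it read 3.20, 6.24, 5.36 and 5.26, with bur 1 not above background. After laser it read 3.99, 3.92, 3.21 and 4.03, and all 4 laser values lay below every control.

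Laser against control gave a log2 difference of -3.35 ± 0.65, which is 10.2-fold lower (adjusted p = 0.0025). All 21 alternative settings in which the probe was kept called it, with values from -3.72 to -1.37. The authors' deposited table gives -1.94 (adjusted p = 0.00537). Bur against control gave -2.12 ± 0.65, 4.35-fold lower (adjusted p = 0.0397), with bur 2 between the lower controls. Of 21 alternative settings 9 called it. It lost the call without bur 1, 3 or 4, control 1 or 4, or laser 1, 2 or 4, with adjusted p of 0.0539 to 0.0998 and differences of -2.23 to -1.51. The authors' deposited table gives -1.28 (adjusted p = 0.0457). Laser and bur differed by -1.23 ± 0.65 (adjusted p = 0.188).

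The controls with the highest Igfbp2 were also those with the highest Mbp, a myelin gene that read 13.29 and 12.37 on controls 1 and 4 and 7.89 and 8.15 on controls 2 and 3. The summed normalized signal of 4 neural and glial markers (Mbp, Gfap, Snap25 and Syt1) was 10460 on control 1 and 5505 on control 4, but 494 and 304 on controls 2 and 3. It ranged from 84.0 to 1014 on the bur arrays and from 196 to 343 on the laser arrays. Mbp made up 95.4% and 96.1% of the sum on controls 1 and 4. Without Mbp the sum was 476, 257, 19.6 and 217 on controls 1 to 4, so control 2 then exceeded control 4. Gfap was highest on control 3, at 3.67. Of the 4 markers 1, Gfap, was called lower and none higher against control in each cut group. Another marker on the list, Mog, did not pass the filter, and Gfap was well above background on 4 of 12 arrays.

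Markers of meninges and choroid plexus did not share 1 pattern over the controls. The summed signal of the 5 measured markers (of 7 listed) ranged from 1068 to 2895 on controls, 910 to 1148 after bur and 642 to 1486 after laser, and none of the 5 was called against control. The sum was highest on control 2, where Igfbp2 read 6.34. Ptgds, made by meningeal cells, read 10.69 and 10.46 on controls 1 and 4 and 5.61 and 7.09 on controls 2 and 3. Ttr, the choroid plexus carrier of thyroid hormone, instead read 1.65 on control 1, 11.13 on control 2 and 7.39 on control 4. Slc6a13 was also highest among controls on control 2 (4.13), and Slc47a1 and Foxc1 were lowest on control 1 (6.15 and 8.49). Without controls 1 and 4 Igfbp2 stayed lower after laser (-2.39, adjusted p = 0.0293), while the bur difference was -1.16 (adjusted p = 0.303). The part of neural or meningeal RNA in the Igfbp2 difference was not tested. In whole tissue, fewer cells of a type and less RNA per cell cannot be told apart.

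**Figure D4:**
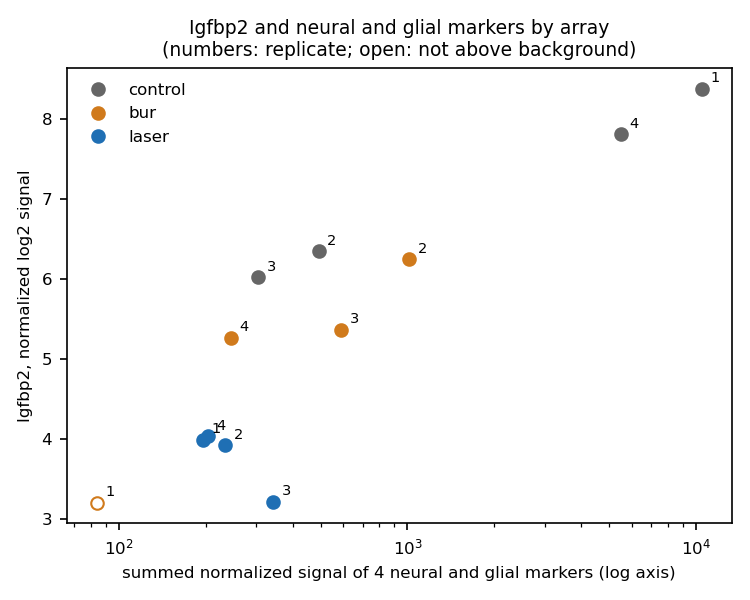
Igfbp2 log2 signal (y axis) against the summed normalized signal of 4 neural and glial markers (x axis, log scale) on each of the 12 arrays, labelled by replicate number. Controls 1 and 4 lie at the top right, at marker sums of 10460 and 5505, and the 4 laser arrays lie low, at Igfbp2 values of 3.21 to 4.03 and marker sums of 196 to 343.

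Igfbp3, the main carrier of IGFs in blood, and Igfbp4, an inhibitor of IGF action that is cut by pappalysins, did not pass the test in any comparison. Igfbp3 read 10.76, 11.75, 10.61 and 10.09 on the controls. After bur it ranged from 11.16 on bur 1 to 12.15 on bur 3, and the 3 arrays other than bur 1 exceeded every control. The bur difference was 1.03 ± 0.38 (adjusted p = 0.0816), and control 2 overlapped the bur arrays. This Igfbp3 difference is 0.97 in the authors' deposited table, with an adjusted p of 0.0213. After laser Igfbp3 read 11.36, 11.90, 11.10 and 10.45, which is 0.40 ± 0.38 above control (adjusted p = 0.455).

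Igfbp4 ranged from 11.38 to 12.19 on the controls and read 11.43, 12.84, 12.51 and 12.80 after bur. Bur 1 was as low as the lower controls and the other 3 bur arrays exceeded all controls. The difference was 0.64 ± 0.32 (adjusted p = 0.182). After laser Igfbp4 ranged from 11.72 to 12.46, 0.22 ± 0.32 above control (adjusted p = 0.635).

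Igfbp1, best known as a liver protein under insulin control, had bur values that all lay below its control values. It read 5.03, 5.42, 5.18 and 4.85 on the controls and 4.77, 4.66, 4.58 and 4.71 after bur. The difference of -0.44 ± 0.19 had an adjusted p of 0.125, and the laser difference of -0.43 ± 0.19 one of 0.104. Neither passed the test.

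Igfbp5, an abundant binding protein of bone that attaches to mineral and matrix, and Igfbp6, which prefers IGF2, gave no call. The brighter Igfbp5 probe (A_64_P047478) ranged from 7.46 to 8.93 on controls, 7.03 to 8.89 after bur and 7.50 to 8.95 after laser. The second Igfbp5 probe (A_44_P264240) ranged from 5.58 to 6.53 on controls and from 6.19 to 7.20 after laser, with a difference of 0.63 ± 0.27 (adjusted p = 0.0933). That Igfbp5 value is 0.56 in the authors' deposited table, with an adjusted p of 0.0450. Igfbp6 ranged from 4.83 to 5.20 on controls and 4.79 to 6.21 after bur, and read 4.43, 4.62, 7.19 and 4.91 after laser. The value on laser 3 was the highest of the 12 arrays.

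Igfbp7 was detected on the laser arrays and on no other array. Its probe was well above background on 4 of 4 laser arrays, 0 of 4 bur arrays and 0 of 4 control arrays. The log2 signals were 7.13, 7.25, 7.68 and 7.43 after laser. They were 2.89, 2.64, 2.78 and 2.23 after bur and 1.55, 0.89, 2.30 and 1.36 on the controls, each below the lowest signal that counted as above background on its array (2.68 to 3.83).

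The raw spot showed the same pattern before any normalization. The mean spot intensity was 267, 315, 465 and 372 on the laser arrays, over a local background of 41 to 49. On the bur and control arrays it was 40.0 to 47.4 over a background of 41 to 45. The probe has 1 spot per array, so no second spot or second probe on the array checks it.

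Since bur and control gave no measured level, only a lower bound was taken for the size, and it holds on the scale of the main fit alone. On that scale Igfbp7 was at least 18.2-fold higher after laser than in controls (log2 4.19) and at least 13.4-fold higher than after bur (3.74). Each bur and control array was given the higher of its lowest signal above background and the spot's own value. Under the normexp background correction the log2 difference from control was 1.87. It is 2.84 in the authors' deposited table for laser against control and 2.59 for laser against bur. These values lie below the bounds, so the size of the difference varied with the scale of the values. The detection flags were read from the scanner files. Between bur and control the fit called Igfbp7 higher after bur (adjusted p = 0.0150), but no array of either group measured it, so no fold is given, and under 75th percentile scaling the adjusted p was 0.0998.

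**Figure D5:**
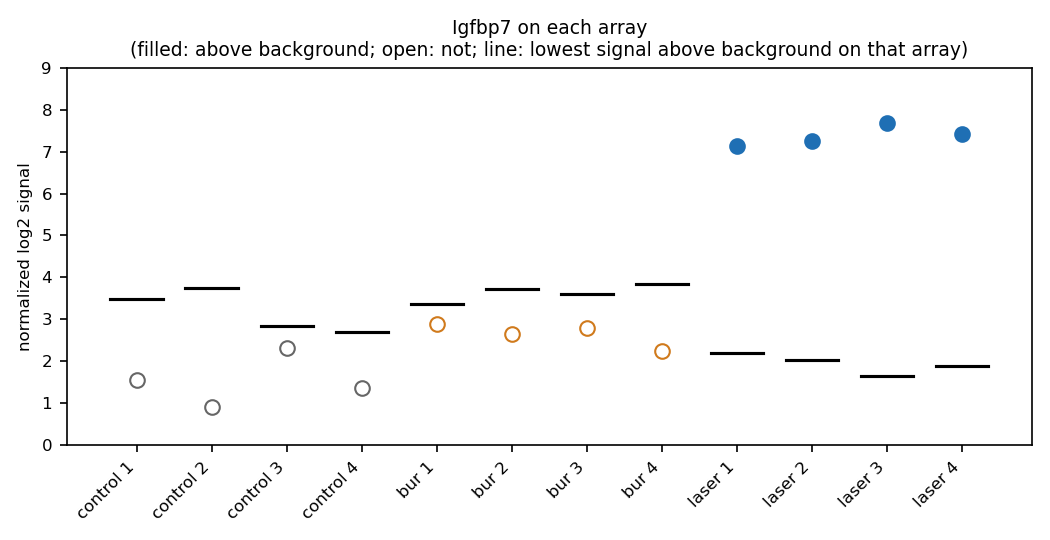
Normalized log2 signal of the Igfbp7 probe (y axis) on each of the 12 arrays (x axis); filled points are well above background, open points are not, and the line on each array is its lowest signal that counted as above background. The 4 laser points lie at 7.13 to 7.68, and the 8 other points lie below their lines.

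The laser arrays lit up many further probes, and the Igfbp7 pattern was not unique to it. Of 45598 probes, 1451 (3.18%) were above background on all 4 laser arrays and on no other, against 0 with that pattern for bur and 1 for control. The median laser log2 signal of those 1451 probes was 3.18, and 8 of them, Igfbp7 included, had a laser mean at or above its 7.37. The higher signal of the laser slide moves with this count, and its part in the Igfbp7 result was not tested. Markers of cells that carry Igfbp7 in other tissues were also read. The summed signal of 7 endothelial markers overlapped between the groups, at 4989 to 8056 on controls, 4015 to 7014 after bur and 5544 to 6158 after laser. Of these 7, Pecam1 and Emcn were called higher and Vwf lower in laser against control, and only Emcn was called in laser against bur, higher. The sum of 6 pericyte and smooth muscle markers was 906 to 1387 on controls, 1337 to 2158 after bur and 1723 to 2216 after laser, so laser and control did not overlap. Pdgfrb and Cspg4 were the brightest of the 6 and weigh most in that sum. Of these 6, Acta2, Tagln, Rgs5 and Cspg4 were called higher in laser against control, Acta2, Tagln and Cspg4 in bur against control, and none in laser against bur. Myh11 went the other way with no call, at a mean of 5.86 on controls, 5.14 after bur and 4.96 after laser. The part of these cells in the Igfbp7 result was not tested.

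The genes most like Igfbp7, Igf1 and Igf2 over the 12 arrays were named by Pearson correlation of the brightest probes, as a description. For Igfbp7 they were LOC102557158 (r = 0.992), Brap (0.988), which encodes a BRCA1-associated protein, and RGD1566373 (0.987). For Igf1 they were Sgce (0.862), a sarcoglycan, Ccdc80 (0.862), a matrix protein, and Socs5 (0.856), a suppressor of cytokine signalling. For Igf2 they were LOC102557363 (0.951), LOC103691267 (0.896) and Gpsm1 (0.896), a regulator of G protein signalling. The 12 points share slides and groups, and no p is given. For Igfbp7, which no bur or control array measured, r mainly reflects the step from those arrays to the laser arrays. Those laser values chose the family.

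Beyond the family, the list of other IGF axis genes held 55 genes, of which 54 were on the array and 49 passed the filter. Bur against control called 8 higher and 4 lower (37 not), where 12.4% and 9.08% of all genes were called higher and lower. Laser against control called 10 higher and 10 lower (29 not), against 17.5% and 15.5% of all genes. Laser against bur called 4 higher and 9 lower (36 not), against 11.5% and 13.6%. The medians were 0.25, 0.24 and -0.03. Without controls 1 and 4 the counts were 2 higher and 3 lower for bur, 2 and 7 for laser, and 6 and 10 for laser against bur.

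Intracellular adaptors and kinases of the pathway were called in both directions after laser. Of the 21 measured, 2 rose and 5 fell against control, where 17.5% and 15.5% of all genes did. Without controls 1 and 4 these counts were 0 and 4. Against bur 1 rose and 5 fell, where 11.5% and 13.6% of all genes did. Pdpk1, the kinase that activates AKT, read 10.22 to 10.53 on controls, 9.89 to 9.99 after bur and 9.35 to 9.48 after laser, with no overlap of the 3 groups. Its differences from control were -0.45 ± 0.11 for bur (adjusted p = 0.0169) and -0.99 ± 0.11 for laser (adjusted p = 7.2e-05). The mean of its 2 probes turned the sign, since the dimmer one read 0.48 and 1.37.

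The adaptor Grb2, which links receptors to RAS, and Pik3cb, a catalytic subunit of PI3K, were lower after laser than in both other groups by their brightest probes. Grb2 read 10.92 to 11.12 on controls, 11.05 to 11.34 after bur and 10.19 to 10.42 after laser. Its laser difference was -0.79 ± 0.12 from control and -0.98 ± 0.12 from bur. The dimmer second Grb2 probe read 0.07 and -0.87 and was not called. Pik3cb was lower by 0.92 ± 0.14 and 0.86 ± 0.14. Its 3 dimmer probes read -0.43, -0.27 and -0.46 against control, with no call, and 1 of the 3 was called against bur (-1.10, adjusted p = 0.0247).

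Pik3r1, the regulatory subunit, read 8.71 to 9.59 on controls by its brightest probe. That probe was lower in both cut groups, by 0.77 ± 0.22 after bur and 0.89 ± 0.22 after laser. The bur call was made in 13 of 22 alternative settings, with values of -0.98 to -0.29. The 2 dimmer Pik3r1 probes, both above background on all 12 arrays, read -0.07 and -0.03 after bur and -0.86 and -0.31 after laser, and neither was called.

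Some members of the axis separated bur from laser. Socs3, a feedback inhibitor of cytokine and growth hormone receptors, read 8.33 to 8.87 on controls, 10.14 to 11.01 after bur and 8.87 to 9.45 after laser. It was higher after bur by 1.94 ± 0.21 against control (adjusted p = 0.000423) and lower after laser than after bur by 1.47 ± 0.21 (adjusted p = 0.000512). The dimmer second Socs3 probe was called in the same directions, at 1.71 and -1.09. The docking protein Gab1 was higher after bur by 0.64 ± 0.13 and lower after laser than after bur by 0.67 ± 0.13. Akt2, a kinase of the insulin pathway, was lower after bur by 0.61 ± 0.14, a call that its second, dimmer probe did not share (0.28).

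On the growth hormone side, Stat5a, which carries the growth hormone signal to Igf1, was lower after laser than in controls by 0.97 ± 0.17 (adjusted p = 0.0013). Socs2, an inhibitor of the same receptor, was higher after laser than after bur by 0.84 ± 0.20 (adjusted p = 0.0101). Foxo3, a transcription factor that AKT keeps out of the nucleus, was lower in both cut groups by its brightest probe, by 0.93 ± 0.21 after bur and 0.95 ± 0.21 after laser. That probe's values were 10.40 to 10.95 on controls and below 10.40 on all 8 cut arrays. The dimmer second Foxo3 probe was called after laser (-1.34) and not after bur (-0.50, adjusted p = 0.210), and it was lower after laser than after bur (-0.84, adjusted p = 0.0381).

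Extracellular partners of the axis were called mainly in laser against control, and most of those calls were lost without controls 1 and 4. Of 6 measured proteases and inhibitors that act on binding proteins, 3 rose after laser, where 17.5% of all genes did, and 1 without controls 1 and 4. Adam12, a metalloprotease that cuts IGFBP3 and IGFBP5, rose by 1.24 ± 0.22 against control (adjusted p = 0.0017). Adam12 read 9.17 to 10.14 on controls, 9.70 to 10.20 after bur and 10.43 to 11.04 after laser. Of 6 related binding proteins, 3 rose and 2 fell after laser, against 17.5% and 15.5% of all genes, and without controls 1 and 4 none was called. H19, the imprinted neighbour of Igf2, was named after its value was seen, because it is read from the same locus. It rose by 1.59 ± 0.51 after bur (adjusted p = 0.0492), while Igf2 itself read -0.89, and only 7 of 22 alternative settings called it.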

How the data were processed

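Per the submitters' processing notes, the single-colour (Cy3) arrays were read with Feature Extraction 11.0.1.1, an Agilent program. The scanner files hold the intensity of each spot as deposited, 62976 spots per array of which 4259 are controls, with no saturated spot. Processed intensities were taken to log2, quantile normalized between arrays as the title of the deposited value table names it, and averaged over the spots of a probe, without control and outlier spots. A gene was represented by its brightest kept probe. One limma fit (version 3.58.1, R 4.3.3) of all 12 arrays gave the 3 comparisons, with Benjamini-Hochberg adjustment over all 27178 kept probes. Probe names came from RefSeq accessions for 24470 probes and from the files for 11705.

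The authors' deposited tables give log2 values, log2 fold changes and p-values, with 21080 entries of distinct accession names. They hold 15 of the 18 family probes, and how probes of 1 accession were combined is not given in the sources used here. Gene lists, markers and the members were chosen with earlier results of these data known, and 1 neural and glial marker is not reported here. From the IGF axis list up to 6 genes with the smallest p in each comparison were named, by brightest probe. The number of arrays limits the precision. Replicate numbers coincide with slide positions and pair no samples by the labels.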

Additional observations from a re-analysis of the deposited data

Results flagged for a closer look

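In each group of 4 arrays the highest or lowest value was compared with the nearest other, and 3 of 30 groups of the 10 brightest probes had a value far from the rest, where chance alone gives about 1 in 20. Igf2 read 8.41 on laser 3, and the nearest other laser array read 7.74. Igfbp2 read 3.21 on laser 3, below the nearest at 3.92. Igfbp3 read 11.16 on bur 1, below the other bur arrays.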

How the results depend on the processing

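The number of family genes called, Igfbp7 included, was 2, 2 and 1 in bur against control, laser against control and laser against bur. Requiring a signal above background on all 12 arrays, which drops Igfbp2 and Igfbp7, gave 0, 1 and 0. The 1 is a gene that the main fit did not call. Fitting only the groups compared gave 0 for bur against control, array weights 1 and leaving out controls 1 and 4 gave 0. For laser against control 75th percentile scaling gave 4, and for laser against bur array weights gave 2. Leaving out 1 array at a time gave 1 to 3, 2 to 3 and 1 to 2 calls. Causes were not tested beyond the construction of each setting.

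The replicate block gave 2, 2 and 1 calls. Same-numbered arrays correlated at -0.07 to 0.29 (median 0.13) in their deviations from group means, and arrays of other numbers at a median of -0.03. That 8 of 12 arrays correlated best with their own number is a hint of pairing from the data. The labels tie no number to a shared animal or day and 7 of 12 pairs were above 0.1, not all, so the numbers were not used as pairing. Under the block Igfbp2 in bur against control had an adjusted p of 0.0671 and Igfbp3 one of 0.0468.

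Igfbp2 in laser against control kept its call in all 21 settings that gave it a value. Sign changes were found in 39 of 654 values of single genes, all for differences that were not called. In bur against control Igf1r turned to -0.0285 under 75th percentile scaling, -0.11 under normexp and with the authors' deposited values, and -0.0870 without controls 1 and 4. Igfbp6 turned to -0.0069 under 75th percentile scaling, and Igfbp5 to 0.0010 under normexp, 0.0025 with the deposited values and 0.12 as the mean of its probes. Leaving out 1 array gave Igf1 -0.0661 to 0.17, Igf1r -0.12 to 0.24 and Igfbp5 -0.43 to 0.19. In laser against control Igfbp5 turned to 0.0894 under normexp, 0.13 with the deposited values, 0.30 as the mean of its probes and 0.45 with array weights, and Igfbp6 to -0.0247 with array weights. Leaving out 1 array gave Igfbp5 -0.29 to 0.24 and Igfbp6 -0.33 to 0.59. In laser against bur Igfbp6 turned to 0.10 under 75th percentile scaling, 0.0548 under normexp and 0.0127 with the deposited values, and Igfbp1 to -0.0444 with array weights. Leaving out 1 array gave Igfbp1 -0.13 to 0.17, Igfbp5 -0.21 to 0.41 and Igfbp6 -0.67 to 0.25.

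Signal near background limits Igfbp7 on the bur and control arrays, the dim Igf2 probe, the Igf1r coding probe and Socs2. Single-spot probes have no repeat within an array. Laser treatment and slide cannot be told apart, nor can bur treatment and slide row, and differences from control rest in part on controls 1 and 4.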
